A study of Mus musculus with 16 samples.

Results

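The effect of morphine withdrawal on gene expression under Kdm7a knockdown was examined by comparing 4 Kdm7a-shRNA + Morphine mice with 5 Kdm7a-shRNA + Saline mice. The members were the entries that the deposited gene table marks as known genes, 19069 of its 26625 entries, and 14162 of them had enough reads to be tested. All mice were male C57BL/6 animals aged 8 to 10 weeks. Both groups had received an AAV in the mPFC (medial prefrontal cortex) on both sides, carrying a short hairpin RNA against Kdm7a under the U6 promoter and EGFP under the CMV promoter, so that the knockdown was shared by the groups compared and was not limited to a chosen cell type. The Kdm7a-shRNA + Morphine mice were conditioned for 10 days in a conditioned place preference (CPP) box with alternate injections of morphine at 10 mg/kg and saline, the Kdm7a-shRNA + Saline mice went through the same CPP without morphine, and the whole mPFC was taken on day 7 of withdrawal, right after the second memory test. The 16 mice of the series include 3 Ctrl + Saline and 4 Ctrl + Morphine mice with a control hairpin virus, which are used here as the reference for the same drug contrast without knockdown. A log2 fold change is morphine over saline throughout, so that a positive value is a higher level in the morphine mice.

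Morphine acts on the mu opioid receptor and, over repeated injections, leaves lasting changes in the circuits for reward, to which the mPFC contributes the recall of drug-paired places. KDM7A is a demethylase that takes methyl groups off lysines of histone H3 that are linked to silent genes. Slc25a12, which leads the comparison described here, encodes the aspartate-glutamate carrier AGC1 (aralar) of the inner mitochondrial membrane, a part of the malate-aspartate shuttle that carries reducing equivalents from glycolysis into the mitochondria of neurons.

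Between 6596991 and 12418112 reads were counted per mouse in the 9 Kdm7a-shRNA mice, the lowest and the highest both in the morphine group. Counts were scaled with TMM factors to normalized CPM, a level relative to the library's total, and genes were tested with edgeR's quasi-likelihood test with Benjamini-Hochberg adjustment over 18826 entries. To pass, a gene needed an adjusted p under 0.05 and a change of 1.5-fold or more either way. Total counts, the share of reads on loci assembled by the authors, the share on the 50 highest genes and the number of entries with a count were not shown to differ between the groups (exact permutation tests, p = 0.611, 0.667, 0.317 and 0.619), and the share on mitochondrially encoded genes, given below, did differ. The tissue showed the markers of cortex. Summed levels per mouse were 1837 to 4030 normalized CPM for 13 genes of excitatory cortical neurons and 408.7 to 639.7 for 10 genes of inhibitory interneurons. Against these stood 120.5 to 295.7 for 9 genes of striatal neurons and 4.84 to 23.8 for the 4 tested of 7 genes of choroid plexus and ependyma. The 8 genes of meninges and fibroblasts summed to 4542 to 7744, of which Ptgds, a gene that oligodendrocytes also express, took 4493 to 7673, and no other of the 8 was above 37.3 in any of the 9 mice. Kdm7a-shRNA + Morphine replicate 2 stood apart from the other morphine mice in several genes that are named where it does.

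Kdm7a (ENSMUSG00000042599), the gene targeted by the hairpin, lies on the minus strand of chr6:39136623-39206789 of GRCm38. Its normalized CPM was 5.74, 4.95, 6.04, 6.07 and 4.92 in the Kdm7a-shRNA + Saline mice and 6.28, 4.44, 3.01 and 6.04 in the Kdm7a-shRNA + Morphine mice. All 9 values were below the Ctrl + Saline values of 9.78, 9.08 and 9.40. The Ctrl + Morphine values were 7.79, 6.19, 8.89 and 8.02, and Kdm7a-shRNA + Morphine replicate 1 was above the lowest of them. Against the control virus mice of the same treatment the log2 fold change was -0.76 under saline (adjusted p = 0.0153), which passed, and -0.67 under morphine (adjusted p = 0.0506), which did not. The Kdm7a-shRNA groups overlapped, with a log2 fold change of -0.19 (SE 0.200, 95% interval -0.61 to 0.23, adjusted p = 0.861) that became 0.00 without morphine replicate 3. At 35 to 54 counts per mouse, no difference between these groups was found. Changes within the interval of -0.61 to 0.23 could not be told from none.

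Only 1 known gene, Slc25a12, passed the test, which is 0.00706% of those tested, and it was also the only call among all entries (0.00531%). At an unadjusted p under 0.05 there were 1048 known genes (7.40%), 578 of them higher (4.08%) and 470 lower (3.32%) in the morphine mice. With the fold minimum added, 149 were higher (1.05%) and 158 lower (1.12%). The groups of mice did not overlap in 277 known genes (1.96%), with every morphine mouse above every saline mouse in 140 (0.989%) and below in 137 (0.967%). The median log2 fold change of the known genes was 0.000401, with 7087 positive and 7075 negative, and the median of the absolute log2 fold change was 0.16. Genes other than Slc25a12 and the gene lists below are therefore described by their values, and those values did not pass the adjusted test.

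**Figure D1:**
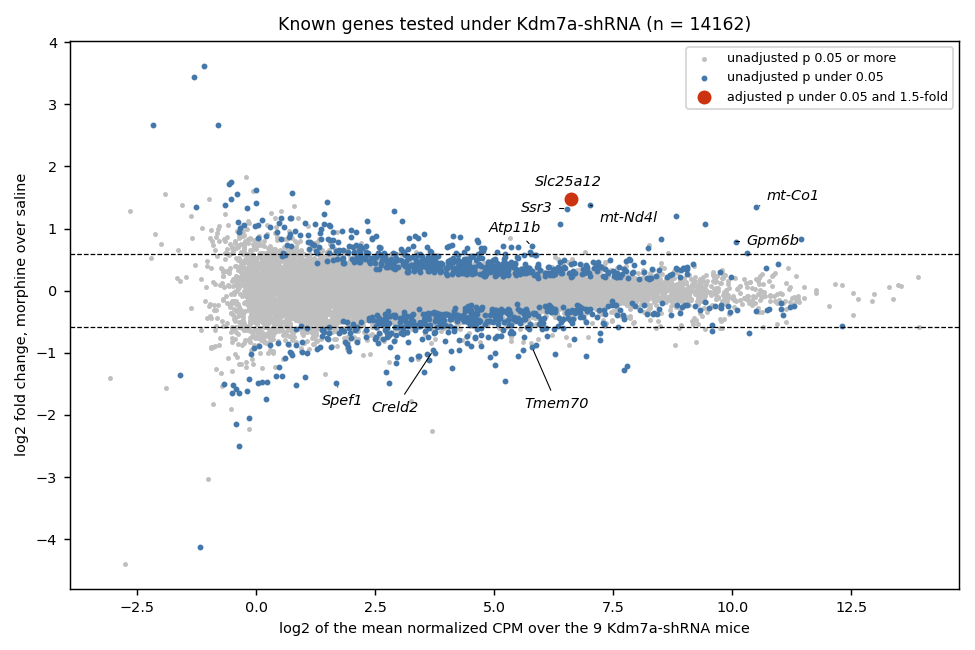
Log2 fold change of morphine over saline (vertical axis) against the log2 of the mean normalized CPM over the 9 Kdm7a-shRNA mice (horizontal axis) for the 14162 known genes tested, 1 point per gene, with dashed lines at the fold minimum of 1.5. Slc25a12 is the single red point, the 1048 genes with an unadjusted p under 0.05 are blue or red, and most points lie close to 0.

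Slc25a12 (ENSMUSG00000027010, minus strand of chr2:71271063-71367749) rose in the morphine mice. Its normalized CPM was 39.8, 64.3, 61.9, 66.6 and 40.0 in the Kdm7a-shRNA + Saline mice and 177, 165, 117 and 149 in the Kdm7a-shRNA + Morphine mice. Every morphine mouse was above every saline mouse, and the lowest morphine mouse stood well above the highest saline mouse. The means were 54.5 ± 13.5 (SD, n = 5) and 152 ± 26.1 (SD, n = 4), a log2 fold change of 1.48 (SE 0.215, adjusted p = 0.0394) or 2.79-fold. The gene had 346 to 1374 counts per mouse. With each of the 9 mice left out in turn the log2 fold change stayed between 1.38 and 1.59, with adjusted p from 0.0253 to 0.186, and it passed in 2 of the 9 fits, those without morphine replicate 2 and without morphine replicate 3. Of 9 other settings it passed in 7.

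In the control virus mice Slc25a12 was at 105, 190 and 156 under saline and at 86.3, 128, 115 and 67.5 under morphine. The Ctrl + Saline mice overlapped the range of the Kdm7a-shRNA + Morphine mice, and the lowest values of all 16 mice were those of the Kdm7a-shRNA + Saline group. The log2 fold change of morphine over saline was -0.60 with the control virus (SE 0.241, adjusted p = 0.332), and the difference of the drug contrast between viruses, 2.08 (SE 0.323), passed the test of the interaction (adjusted p = 0.0230).

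**Figure D2:**
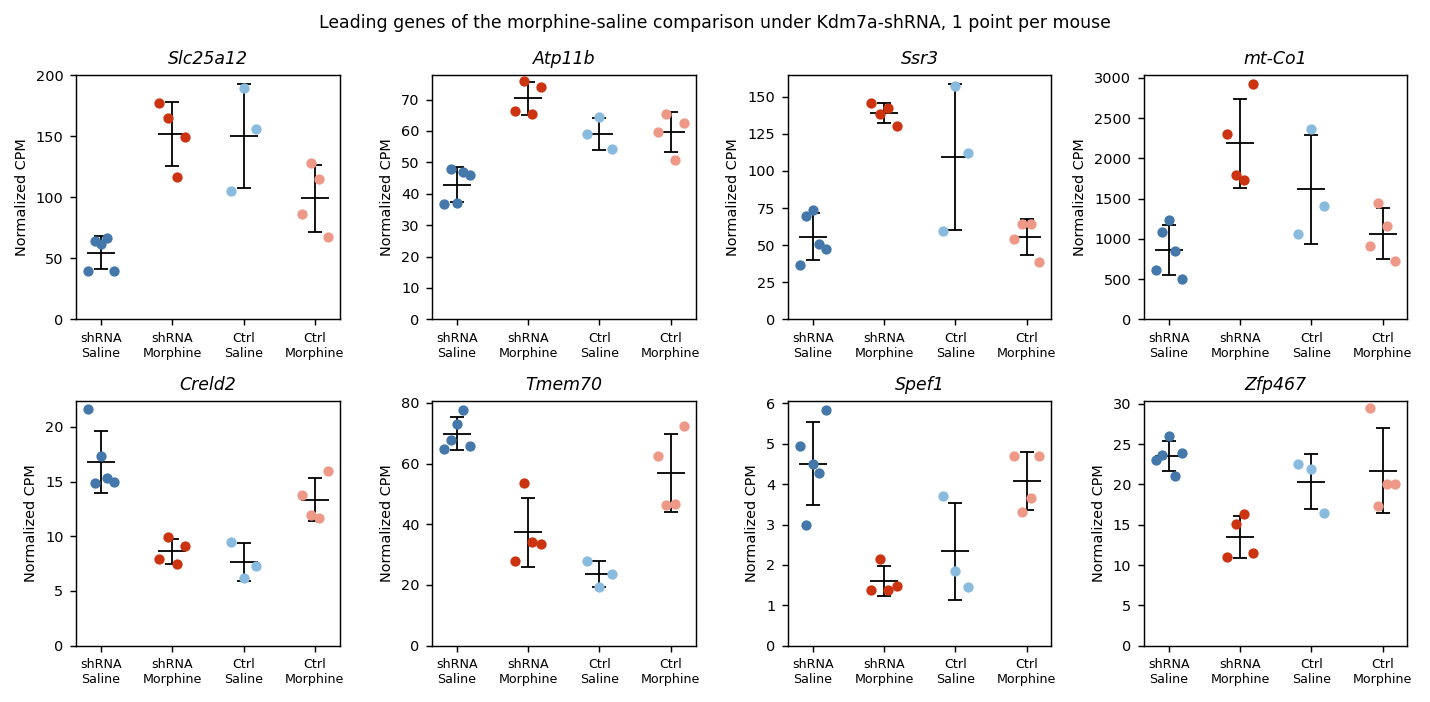
Normalized CPM (vertical axes, from 0) of 8 leading genes in each mouse of the 4 groups, 1 point per mouse, with the mean (long bar) and SD (error bar); shRNA is the Kdm7a-shRNA virus. In each of the 8 genes the morphine points under Kdm7a-shRNA do not overlap the saline points.

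The malate-aspartate shuttle was examined as a whole because Slc25a12 encodes a carrier of it. All 7 of its genes were tested and only Slc25a12 passed. As the list was chosen through Slc25a12, that gene is no support for a shift of the shuttle. All 7 log2 fold changes were positive, with a median of 0.21, against 7087 positive among the 14162 known genes. Apart from Slc25a12 they lay between 0.14 and 0.28, and the groups overlapped in each of those genes. Slc25a13, the sister carrier of liver, was low in every mouse, from 1.34 to 4.30, and its groups overlapped (0.28, adjusted p = 0.889). The oxoglutarate carrier Slc25a11 had a log2 fold change of 0.14, and the aminotransferases Got1 and Got2 had 0.16 and 0.22. The malate dehydrogenases Mdh1 and Mdh2 had 0.17 and 0.21. Mdh2 was the other member with an unadjusted p under 0.05 (adjusted p = 0.712), as 4.08% of all known genes were on the higher side. In the control virus mice 3 of the 7 were positive and the median was -0.04. Among the 34 other tested SLC25 mitochondrial carriers, 18 were positive and 16 negative, and 1 had an unadjusted p under 0.05, Slc25a46 of the outer membrane (0.46).

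Genes of glycolysis and of the citric acid cycle were mostly positive too. Of 18 genes of glycolysis and lactate 17 were positive, with a median of 0.18, and 6 were higher at an unadjusted p under 0.05, as 4.08% of all known genes were, with none lower and none passing. Phosphofructokinase Pfkp, which commits sugar to glycolysis, was at 123, 186, 195, 242 and 192 in saline and 248, 219, 227 and 261 in morphine mice (0.35, adjusted p = 0.692). Pgk1, a kinase that makes ATP in the pathway, was at 286, 243, 271, 342 and 274 against 448, 352, 336 and 303 (0.35, adjusted p = 0.643). In both genes the groups overlapped through saline replicate 4. The others were Tpi1 (0.39), Pgam1 (0.32), Eno2 (0.27) and Gpi1 (0.21). Of 23 genes of pyruvate entry and the citric acid cycle 16 were positive, with a median of 0.14, and 4 were higher at an unadjusted p under 0.05, against the same 4.08%. Among these were Pdhb of pyruvate dehydrogenase (0.39), Idh3a of isocitrate dehydrogenase (0.27) and Sdha of succinate dehydrogenase (0.19). The medians of these lists were 0.04 and -0.08 with the control virus.

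The mitochondrial genome showed the largest shift among the lists of energy metabolism. Transcripts of its 13 proteins had a median log2 fold change of 0.43, with 11 positive, and 8 had an unadjusted p under 0.05, all higher (4.08% of all known genes), while none passed. Every morphine mouse was above every saline mouse in 5 of the 13, against 0.989% of all known genes. The 13 genes share the mitochondrial genome and are not independent of each other, so these counts are not separate results. mt-Co1 (chrM:5328-6872), a core subunit of cytochrome oxidase, was at 614, 1081, 1240, 856 and 505 normalized CPM in the saline mice and at 2304, 1793, 1737 and 2922 in the morphine mice (1.35, SE 0.273, adjusted p = 0.225). The groups did not overlap, and saline replicates 1 and 5 were the lowest. mt-Nd4l, a small subunit of complex I, was at 35.5, 78.9, 131, 86.8 and 47.2 against 221, 188, 164 and 213 (1.37, adjusted p = 0.272). Its gene shares 7 bases with that of mt-Nd4, and a read across both could be counted for either. The genes of mt-Nd5 and mt-Nd6 share 14 bases on opposite strands. The other high members were mt-Co2 (1.07), mt-Nd4 (0.84), mt-Nd5 (0.83), mt-Nd6 (0.68), mt-Cytb (0.43) and mt-Nd1 (0.42).

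As a share of all reads, mitochondrially encoded genes took 0.538%, 0.762%, 0.841%, 0.841% and 0.593% in the Kdm7a-shRNA + Saline mice and 1.24%, 1.12%, 0.9755% and 1.48% in the Kdm7a-shRNA + Morphine mice. The means were 0.715% ± 0.141 (SD, n = 5) and 1.2% ± 0.214 (SD, n = 4), and the groups did not overlap. The two-sided exact permutation test over the 126 splits of the 9 mice gave p = 0.00794, the smallest it can give, and 0.0397 after adjustment over 5 library measures. The 7 control virus mice ranged from 0.636% to 1.22%, across both ranges. The part of this share in the values of other genes was not tested. In the control virus mice the median log2 fold change of the 13 genes was -0.18.

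Nuclear genes of the respiratory chain and ATP synthase did not share this shift. Of 71 tested, 44 were positive and 27 negative, with 3 higher and 3 lower at an unadjusted p under 0.05, a share near that of all known genes. The higher ones were Uqcrb (0.32), Ndufv1 (0.30) and Uqcrc1 (0.27), and the lower ones Cox5a (-1.04), Ndufab1 (-0.54) and Cyc1 (-0.39). Cox5a, a subunit of cytochrome oxidase, was at 165, 156, 154, 165 and 154 in the saline mice and at 49.95, 162, 48.0 and 47.9 in the morphine mice. Morphine replicate 2 was level with the saline mice and the other 3 morphine mice were far below them, and without replicate 2 Cox5a passed. Its adjusted p with all mice was 0.597.

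Tmem70 (ENSMUSG00000025940, plus strand of chr1:16665207-16678275), an assembly factor of ATP synthase, was among the genes with the smallest p-values on the lower side. It was at 64.8, 67.7, 72.9, 77.7 and 65.9 in the saline mice and at 27.7, 53.7, 34.3 and 33.4 in the morphine mice. All morphine mice were below all saline mice, with replicate 2 again the nearest to them. The log2 fold change was -0.90 (SE 0.181, adjusted p = 0.225), and it passed without replicate 2 and under DESeq2's Wald test. Tmem70 went the other way with the control virus, from 28.0, 19.4 and 23.7 under saline to 62.5, 46.2, 46.7 and 72.4 under morphine (1.27, adjusted p = 0.0959), and the difference between viruses of -2.17 (SE 0.278) passed (adjusted p = 0.00705).

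Genes of the endoplasmic reticulum (ER) that fold and modify new proteins lay mostly on the lower side in the morphine mice. Of 27 ER chaperones and folding enzymes 21 were negative, with a median of -0.15, and 8 were lower at an unadjusted p under 0.05, against 3.32% of all known genes, with none higher and none passing. The median was -0.10 without saline replicate 3. In 7 of the 27 every morphine mouse was below every saline mouse, against 0.967% of all known genes. Creld2 (ENSMUSG00000023272, plus strand of chr15:88819646-88826683), a secreted folding factor that is made under ER stress, was at 21.6, 14.9, 17.3, 15.3 and 14.98 in the saline mice and at 7.97, 9.95, 7.47 and 9.12 in the morphine mice. The groups did not overlap, and the log2 fold change was -0.96 (SE 0.168, adjusted p = 0.0923). Creld2 passed under DESeq2's Wald test.

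Sdf2l1, a partner of the chaperone BiP, was at 14.8, 13.0, 21.7, 11.8 and 17.2 against 6.28, 7.31, 11.7 and 5.10 (-1.02, adjusted p = 0.427). The co-chaperone Dnajc3 was at 15.5, 14.3, 20.5, 12.9 and 17.4 against 6.28, 12.8, 11.8 and 9.66 (-0.66, adjusted p = 0.561). Neither gene overlapped between the groups, although the highest morphine mouse came close to the lowest saline mouse in both. The others were Ddost of the oligosaccharyl transferase (-0.73), the transcription factor Xbp1 of the unfolded protein response (-0.71), the disulfide isomerase Pdia3 (-0.68), the secreted factor Manf (-0.51) and the chaperone Hsp90b1 (-0.23). In Ddost and Xbp1 the groups overlapped through morphine replicate 2. The summed level of the list was 2783 to 3357 normalized CPM in the saline mice and 2539 to 2821 in the morphine mice, and 2391 to 2723 in the control virus mice. The median with the control virus was 0.03, with 14 of 27 positive.

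Several genes of this group are known targets of XBP1 and ATF6 through the ER stress response element (ERSE). The element, searched as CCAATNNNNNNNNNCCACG on both strands in the 250 bases before each RefSeq gene start of GRCm38.p6, was present in 0.113% of 32851 promoters and in 7 of the 23 members for which a promoter was found, Calr, Canx, Creld2, Dnajc3, Hsp90b1, Hspa5 and Pdia6. Creld2, Dnajc3, Hsp90b1 and Pdia6 of these were among the 7 of 27 members without overlap, against 0.967% of all known genes. Sdf2l1, Pdia3 and Manf were also free of overlap and not among the holders, and no promoter was found for Manf. Whether the element had a part in these values was not tested. The promoters of the 3 with the unadjusted p under 0.05 are shown with the element in capitals, and a match is a stretch of letters and not a measured binding site. They lie at chr15:88819396-88819645 (plus strand), chr14:118937682-118937931 (plus strand) and chr10:86705445-86705694 (minus strand).
Creld2: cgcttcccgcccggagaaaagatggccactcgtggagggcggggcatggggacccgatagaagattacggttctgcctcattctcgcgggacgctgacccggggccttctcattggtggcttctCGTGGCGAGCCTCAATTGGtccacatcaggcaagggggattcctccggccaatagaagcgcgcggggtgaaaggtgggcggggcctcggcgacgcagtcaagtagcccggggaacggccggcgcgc
Dnajc3: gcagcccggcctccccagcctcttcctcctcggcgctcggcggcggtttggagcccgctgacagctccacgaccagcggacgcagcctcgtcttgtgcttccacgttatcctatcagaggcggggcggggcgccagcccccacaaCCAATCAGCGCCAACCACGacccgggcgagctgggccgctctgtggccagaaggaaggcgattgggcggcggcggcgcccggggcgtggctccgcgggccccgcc
Hsp90b1: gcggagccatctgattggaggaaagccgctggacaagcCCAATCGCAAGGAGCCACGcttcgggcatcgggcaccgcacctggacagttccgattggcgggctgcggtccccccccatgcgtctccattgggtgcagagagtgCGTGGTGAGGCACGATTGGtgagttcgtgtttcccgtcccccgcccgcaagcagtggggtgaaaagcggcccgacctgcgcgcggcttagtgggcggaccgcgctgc

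Creld2 and Dnajc3 hold the element once, on the minus and on the plus strand, and Hsp90b1 holds it 2 times. Hspa5, which encodes BiP and also holds it, was not among the members with an unadjusted p under 0.05. As the list is made of ER folding genes, its share of the element is a trait of the list and not of the morphine contrast.

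Other stress and protein synthesis genes were also lower in most members. Of 15 heat shock proteins and their partners 11 were negative, with 3 lower at an unadjusted p under 0.05 (3.32% of all known genes). Hspd1, a chaperone that acts in the mitochondria, was at 547, 515, 539, 503 and 534 in the saline mice and at 384, 410, 361 and 494 in the morphine mice, without overlap (-0.36, adjusted p = 0.437). The inducible Hspa1a (-1.05) and the small heat shock protein Hspb1 (-1.31) overlapped between groups. All 15 were negative with the control virus, with a median of -0.35 against -0.20 under Kdm7a-shRNA. Of 20 genes of the integrated stress response 18 were negative, with 1 at an unadjusted p under 0.05, the arginine carrier Slc7a3 (-0.35), which overlapped through morphine replicate 2. Of 79 cytosolic ribosomal proteins 75 were negative, with a median of -0.14 and 10 lower at an unadjusted p under 0.05, against 3.32% of all known genes, and no group pair was free of overlap in any of them. In the control virus mice 67 of the 79 were negative, with a median of -0.07.

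Interferon-stimulated genes, which cells switch on against viruses, were all on the lower side. All 25 tested were negative, with a median of -0.62, but only 3 had an unadjusted p under 0.05, against 3.32% of all known genes on the lower side, and no member was free of overlap. The median depended on single mice and was -1.19 without morphine replicate 3 and -0.36 without saline replicate 3. Ifit1, an RNA-binding antiviral protein, was at 133, 382, 546, 89.8 and 287 in the saline mice and at 131, 64.3, 212 and 64.8 in the morphine mice (-1.28, SE 0.481, adjusted p = 0.661). Its paralog Ifit3b was at 20.7, 64.2, 120, 25.2 and 64.7 against 37.4, 17.3, 47.1 and 11.3 (-1.05, adjusted p = 0.704). Saline replicates 2, 3 and 5 were high and saline replicates 1 and 4 lay within the range of the morphine mice, and the same mice were high or low in most of the list. Ifi27, a short interferon-induced membrane protein, was the other member (-0.55). Ifit3b has near copies in the family, between which reads may have been split.

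The summed level of the 25 genes ran from 1823 to 7309 normalized CPM in the saline and from 1349 to 4567 in the morphine mice. The 12 genes of microglia, the immune cells of the brain, were likewise all negative, with a median of -0.47, none with an unadjusted p under 0.05, and summed levels of 2948 to 8929 and 1966 to 8704. Their median was -1.04 without morphine replicate 3, -0.29 without saline replicate 3 and -0.26 without morphine replicate 4. The part of these cells in the interferon values was not tested, and in bulk tissue fewer cells of a type and less RNA per cell cannot be told apart. With the control virus 21 of the 25 interferon genes and 10 of the 12 microglial genes were negative, with medians of -0.23 and -0.31.

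The interferon-stimulated response element (ISRE) is the sequence that interferon factors bind, and its core was searched as GAAANNGAAA on both strands of the same windows. It was present in 2.98% of the 32851 promoters and in 12 of the 20 members for which a promoter was found. The promoters of Ifit1 and Ifit3b, the members with the lowest log2 fold changes among the 3, are shown with the core in capitals. They lie on the plus strand at chr19:34640639-34640888 and chr19:34607707-34607956.
Ifit1: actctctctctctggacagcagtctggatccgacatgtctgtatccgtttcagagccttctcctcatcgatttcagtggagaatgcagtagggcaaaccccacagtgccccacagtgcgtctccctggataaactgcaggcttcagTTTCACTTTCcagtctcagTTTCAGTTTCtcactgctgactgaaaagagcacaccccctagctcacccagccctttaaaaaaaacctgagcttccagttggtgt
Ifit3b: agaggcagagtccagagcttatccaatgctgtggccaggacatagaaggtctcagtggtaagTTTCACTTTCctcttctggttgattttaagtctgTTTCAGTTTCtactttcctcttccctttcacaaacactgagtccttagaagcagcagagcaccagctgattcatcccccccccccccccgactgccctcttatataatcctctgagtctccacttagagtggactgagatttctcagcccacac

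Each of the 2 windows holds the core 2 times, read on the minus strand. The matches are a description of the windows and carry no measurement of binding. As the list is made of interferon-stimulated genes, its share of the core is a trait of the list and not of the morphine contrast.

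**Figure D3:**
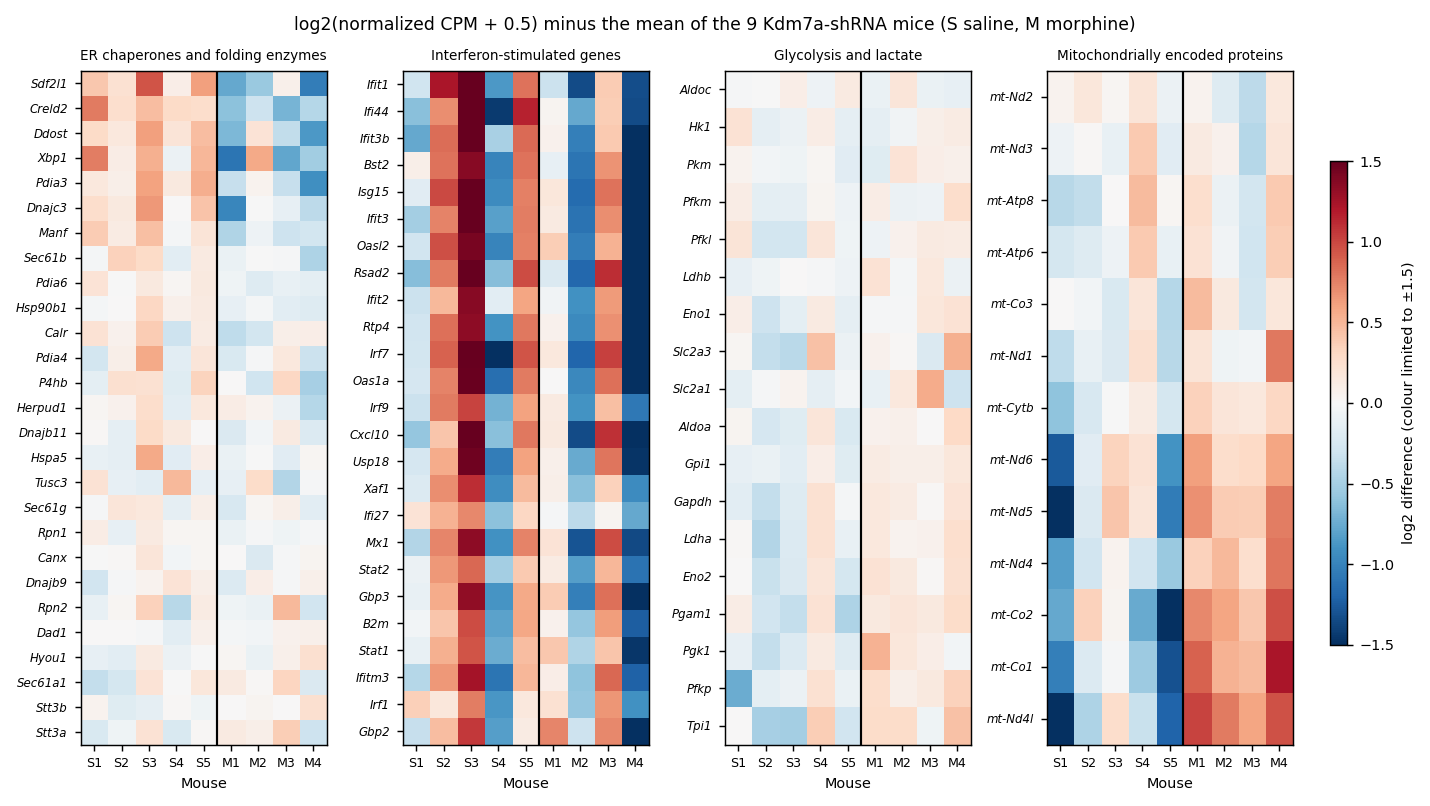
Log2 of the normalized CPM with a pseudocount of 0.5, minus the mean of the 9 Kdm7a-shRNA mice, for the tested members of 4 gene lists (rows, in order of their log2 fold change) in the saline mice S1 to S5 and morphine mice M1 to M4 (columns, parted by the black line), with colour limited at 1.5 either way. The mitochondrially encoded genes at the bottom of their panel are blue in S1 and S5 and red in all 4 morphine mice, the top ER genes are mostly red in saline and blue in morphine mice, and the interferon panel follows single mice, with S3 high and M4 low.

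Cholesterol synthesis and the circadian clock held further members on the higher side. Of 24 cholesterol genes 22 were positive, with a median of 0.26, and 4 were higher at an unadjusted p under 0.05 (4.08% of all known genes). Hsd17b7, an enzyme of the pathway, was at 4.25, 3.92, 2.84, 6.07 and 5.03 in the saline mice and at 6.44, 7.67, 5.41 and 6.17 in the morphine mice (0.53, SE 0.220, adjusted p = 0.6996). The groups overlapped only between saline replicate 4 and morphine replicate 3. The enzymes Dhcr7 (0.50) and Cyp51 (0.50) were also among the 4. With the control virus 22 of the 24 were positive as well, with a median of 0.22.

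Among 18 clock genes 4 were higher and 1 was lower at an unadjusted p under 0.05, against 4.08% and 3.32% of all known genes. Dbp, a clock output factor, was at 22.2, 24.8, 16.4, 20.02 and 19.6 against 26.4, 26.98, 37.3 and 33.5 (0.60, adjusted p = 0.501). The repressor Nr1d1 was at 19.3, 21.4, 16.4, 16.9 and 14.5 against 26.5, 21.7, 24.4 and 26.4 (0.48, adjusted p = 0.589). Neither overlapped, and Nr1d1 came within a narrow gap through morphine replicate 2. Ciart (0.88) and Per3 (0.44) were higher, with groups that overlapped. Cry1, a repressor of the clock, was lower (-0.52). Its groups did not overlap, but morphine replicate 3 and saline replicate 5 were level, both at 6.53. The time of day at which each mouse was killed is not given in the sources used here. With the control virus Dbp (0.96), Nr1d1 (0.56) and Ciart (0.61) had positive log2 fold changes too.

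The genes closest to morphine and to synapses gave few differences. None of the 7 tested opioid receptors and peptides had an unadjusted p under 0.05. The mu receptor gene Oprm1 was sparse, with 0 to 40 counts per mouse and 0 in saline replicate 1, where a count of 0 allows up to 3 counts. It was at 0, 4.61, 0.592, 0.787 and 0.402 normalized CPM in saline and at 0.306, 3.60, 0.430 and 0.134 in morphine mice, with replicate 2 of each group far above the rest, and its log2 fold change of -0.17 changed sign when single mice were left out. The dynorphin precursor Pdyn was at 11.9, 11.4, 10.3, 11.02 and 10.2 against 14.9, 16.2, 7.65 and 15.3 (0.29, adjusted p = 0.778), with morphine replicate 3 alone below the saline mice. None of 17 dopamine, serotonin and adrenergic receptors, 16 ionotropic glutamate receptors or 12 GABA-A receptor subunits had an unadjusted p under 0.05.

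Of 32 immediate early genes, which follow neuronal activity, Jun alone did so (-0.50, adjusted p = 0.712). Of 22 genes of synaptic vesicle release 21 were positive, with a median of 0.19 and 2 higher at an unadjusted p under 0.05, Rims1 of the active zone (0.34) and the vesicle glycoprotein Sv2a (0.27), and with the control virus 19 of the 22 were positive. The median of this list was 0.08 without morphine replicate 4, 0.13 without saline replicate 2 and 0.12 without saline replicate 5. The postsynaptic scaffold Homer3 (-0.63), spinophilin Ppp1r9b of dendritic spines (-0.50), the guidance cue Slit2 (0.84), the granin partner Scg5 (0.38), glutamine synthetase Glul (-0.29) and the H3K9 methyltransferase Suv39h2 (0.67) were the members with an unadjusted p under 0.05 in lists of 17, 27, 42, 20, 21 and 21 genes, each with an adjusted p of 0.589 or more. Of 16 glucocorticoid genes 2 were lower, Cdkn1a (-0.68) and Plin4 (-1.11), and of 31 proteasome genes 1 was higher and 1 lower. Against 7.40% of all known genes, these are 1 or 2 genes of each list.

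Fscn1, the actin-bundling protein fascin that the study followed, was at 53.9, 39.3, 38.2, 47.0 and 41.9 in the Kdm7a-shRNA + Saline mice and at 33.4, 46.5, 36.9 and 46.3 in the Kdm7a-shRNA + Morphine mice. The groups overlapped, with a log2 fold change of -0.11 (95% interval -0.49 to 0.27, adjusted p = 0.925). With the control virus Fscn1 was at 53.5, 33.8 and 37.1 under saline and at 90.2, 67.5, 55.6 and 98.5 under morphine (0.91, adjusted p = 0.136). The difference between viruses of -1.02 did not pass (adjusted p = 0.141). Against the control virus mice of the same treatment, the log2 fold change of Fscn1 was -0.94 under morphine (adjusted p = 0.0077), which passed. Under saline it was 0.09 (adjusted p = 0.785), which did not. Other genes of the study's sequencing also overlapped under Kdm7a-shRNA, the neuropeptide Cck (-0.36), the glycosyl transferase subunit Tusc3 (-0.14), the adhesion molecule Icam5 (-0.44), the guidance cue Slit1 (-0.40), the deep-layer neuron factor Fezf2 (0.08) and Nudt19 (-0.45), with adjusted p from 0.712 to 0.966.

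**Figure D4:**
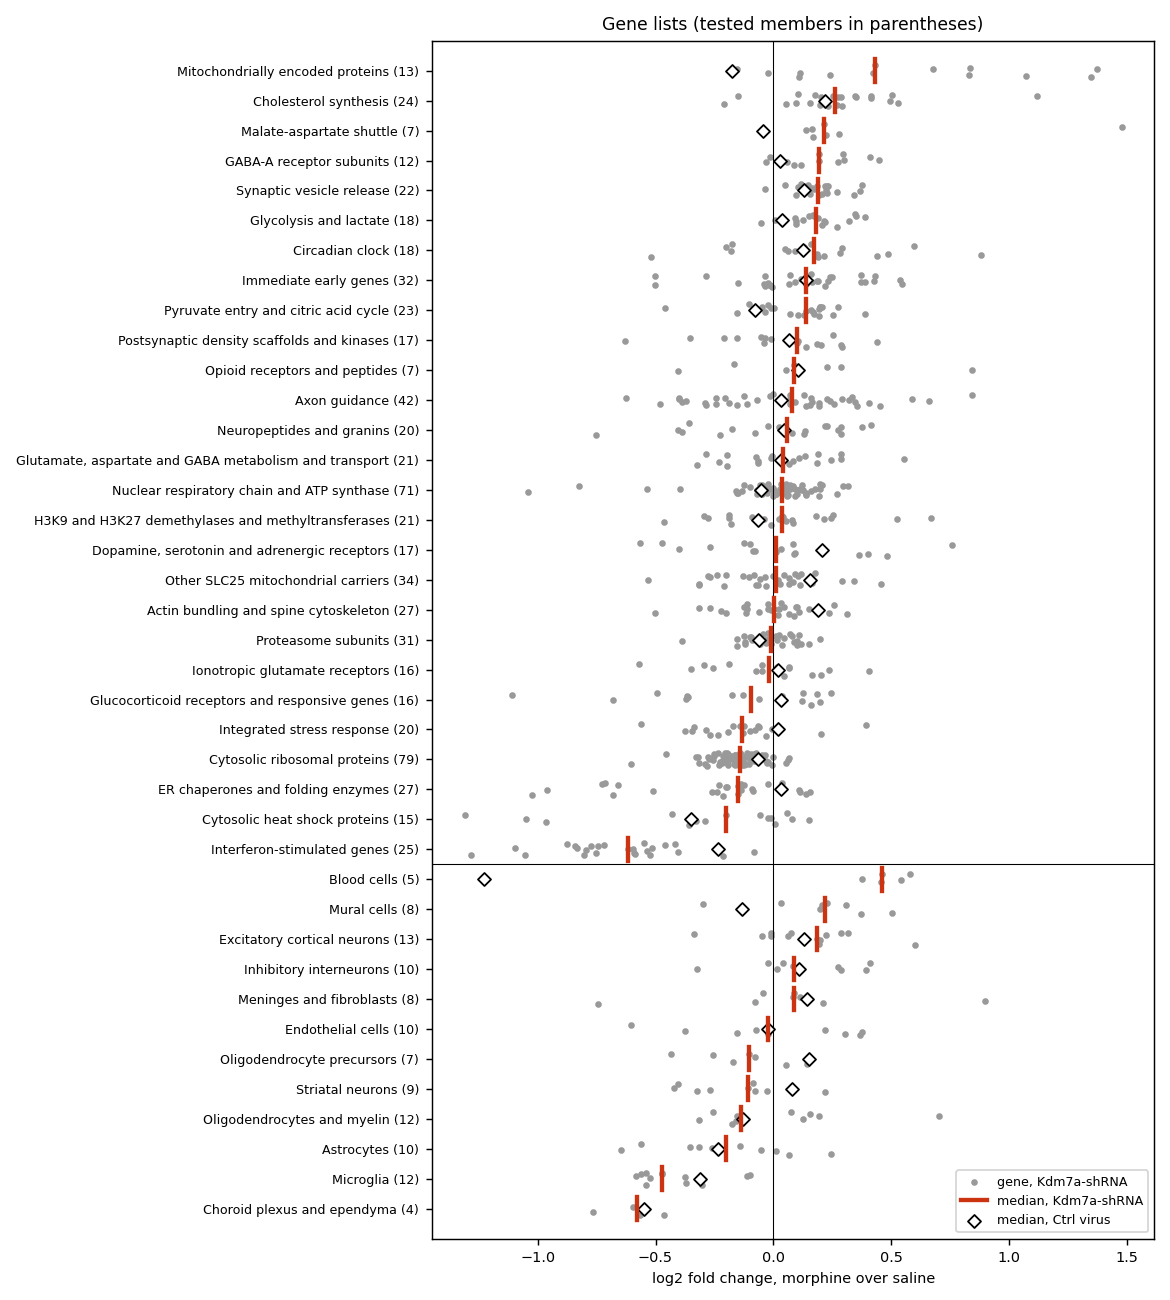
Log2 fold change of morphine over saline (horizontal axis) for each tested member (grey points) of 27 pathway lists (above the line) and 12 lists of cell type markers (below it), with the list's median under Kdm7a-shRNA (red bar) and with the control virus (open diamond). The median is highest for the mitochondrially encoded proteins among the pathways, at 0.43, and lowest for the interferon-stimulated genes, at -0.62.

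Markers of cell types were followed because tissue pieces can differ in what they hold. None of the tested markers passed. Of 13 genes of excitatory cortical neurons 9 were positive, with Foxp2 of deep layers above the saline mice in every morphine mouse (0.60, adjusted p = 0.703), and of 10 genes of inhibitory interneurons 8 were positive. Of 10 astrocyte genes 7 were negative. Sox9 (-0.64), Gjb6 (-0.35) and S100b (-0.31) were lower at an unadjusted p under 0.05, against 3.32% of all known genes. The summed levels of the 10 genes, 8887 to 10605 normalized CPM in saline and 8546 to 10459 in morphine mice, overlapped. Single markers with an unadjusted p under 0.05 were Opalin of myelin (0.70), Flt1 of endothelium (-0.60), Rgs5 of mural cells (0.37) and Lum (0.90) and Igf2 (-0.74) of meninges. Such a p was reached by 7.40% of all known genes. Opalin went against most of its list, as 7 of 12 oligodendrocyte and myelin genes were negative and 5 positive. Of 10 endothelial genes 6 were negative and 4 positive, and of 8 mural genes 7 were positive. Of 8 genes of meninges and fibroblasts 5 were positive and 3 negative. The 5 blood genes were all positive, with a median of 0.46 and summed levels of 380.5 to 574.7 and 322.2 to 1173. This median was 0.04 without morphine replicate 3. With the control virus the 5 blood genes went the other way, all lower in the morphine mice at an unadjusted p under 0.05. At that p 439 of the 14162 known genes were lower with the control virus and 1343 were higher. The median of the 5 genes was -1.23, with summed levels of 737.2 to 1570 under saline and 379.7 to 682.3 under morphine. The part of these cell types in the differences of other genes, those of the interaction below included, was not tested.

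The remaining genes with the smallest p-values at a fold change of at least 1.5 belong to no single list. Atp11b (ENSMUSG00000037400, plus strand of chr3:35754106-35856276), a flippase that moves phospholipids between membrane leaflets, was at 36.8, 47.8, 37.1, 46.9 and 46.1 in the saline mice and at 66.5, 76.0, 65.5 and 73.9 in the morphine mice. The groups were clearly apart, with a log2 fold change of 0.71 (SE 0.115, adjusted p = 0.0708), and Atp11b passed when genes were required to have 10 counts in every mouse (adjusted p = 0.0316). It was level between saline and morphine with the control virus (0.01).

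Ssr3 (ENSMUSG00000027828, minus strand of chr3:65379655-65392623), a subunit of the ER translocon complex TRAP, was at 36.9, 69.9, 73.7, 50.7 and 47.5 in the saline mice and at 146, 138, 143 and 131 in the morphine mice. The morphine mice were close to each other and all above the saline mice (1.32, SE 0.234, adjusted p = 0.0923). In mice with the control hairpin Ssr3 was at 59.2, 158 and 112 under saline and at 54.4, 64.3, 64.5 and 38.9 under morphine. The difference between viruses of 2.30 (SE 0.354) passed (adjusted p = 0.0230).

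Further genes on the higher side, each free of overlap between groups, were the myelin and neuronal membrane protein Gpm6b (0.79), the growth factor Fgf9 (0.78), the splicing factor Srsf1 (0.87), the flavin monooxygenase Fmo1 (0.72) and Dph7 of diphthamide synthesis (0.69), with adjusted p from 0.225 to 0.332. Gpm6b was at 538, 879, 1122, 828 and 717 against 1514, 1337, 1317 and 1484. On the lower side were Spef1, a microtubule protein of cilia, at 4.94, 3.0, 4.5, 4.27 and 5.83 against 1.38, 2.16, 1.37 and 1.48 (-1.49, adjusted p = 0.176), and the zinc finger gene Zfp467 at 23.0, 23.6, 26.1, 21.0 and 23.9 against 11.03, 15.1, 16.3 and 11.5 (-0.79, adjusted p = 0.272). Neither overlapped. Spef1 had 9 to 58 counts per mouse. It shares 256 exonic bases with Gm14232 and 92 with Cdc25b on the other strand, and 20 with Cenpb on its own strand. The scaffold Mpp6 (-0.62), Rpusd3 of mitochondrial RNA modification (-0.71), the cytokine receptor Crlf2 (-0.89), the centrosomal Ppp1r35 (-0.81), Ano8 (-1.74, at 1 to 20 counts per mouse) and the homeobox gene Hopx (-0.73) completed the 10 on that side, with adjusted p from 0.373 to 0.427. Hopx overlapped between groups at a single pair of mice, and exons of Rpusd3 and Hopx share bases with genes of the other strand.

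DESeq2's Wald test called 17 known genes (0.120%), 12 higher and 5 lower. They were Slc25a12, Atp11b, Ssr3, Dph7, mt-Co1, Fmo1, Fgf9, mt-Nd4l, Srsf1, Gpm6b, Guf1 and Tipin on the higher side and Creld2, Spef1, Tmem70, Zfp467 and Mpp6 on the lower side. Guf1, a translation factor of mitochondria, was at 12.8, 14.4, 13.7, 10.2 and 12.3 against 23.9, 22.8, 20.7 and 14.9 (0.70), and 1022 of its exonic bases are shared with Gnpda2 on the other strand. Tipin, a factor of the replication fork, was at 25.5, 27.4, 22.3, 29.7 and 29.2 against 45.8, 33.0, 51.0 and 34.8 (0.62). In both every morphine mouse was above every saline mouse.

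Whether morphine acted differently with and without knockdown was tested with the interaction of virus and treatment, in which no mouse is shared between the compared differences. It passed for 16 known genes (0.113%) and for no other entry (0.085% of all), 2 with a more positive and 14 with a more negative morphine effect under Kdm7a-shRNA, and in all 16 the log2 fold changes of the viruses had opposite signs. The count, which over all entries was also 16, depended on single mice. It was 266 without Ctrl + Saline replicate 1, 113 without Kdm7a-shRNA + Morphine replicate 2, 39 without Ctrl + Morphine replicate 3, and 0 without Ctrl + Saline replicate 2 or replicate 3, and it was 1 to 6 without any other mouse. Of the genes described above, Slc25a12 (2.08), Ssr3 (2.30), Creld2 (-1.77), Spef1 (-2.31) and Tmem70 (-2.17) passed. In the control virus mice Creld2 was at 9.52, 6.15 and 7.29 under saline and at 13.8, 11.95, 11.7 and 15.9 under morphine.

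In these 5 genes, which were picked by the interaction test, the Kdm7a-shRNA + Saline mean lay on the side of the Ctrl + Morphine mean. The Kdm7a-shRNA + Morphine mean lay on the side of the Ctrl + Saline mean. Kdm7a-shRNA + Saline over Ctrl + Saline gave -1.46 for Slc25a12, -0.98 for Ssr3, 1.14 for Creld2, 0.96 for Spef1 and 1.56 for Tmem70. Both groups of this comparison are part of the interaction, so these values describe the same result and are no separate support for it. Across the 14162 known genes the log2 fold changes of the viruses had a Pearson's r of -0.09 and a Spearman's rho of -0.07, a description across genes, which are not independent replicates. No known gene passed between Ctrl + Morphine and Ctrl + Saline with edgeR. At an unadjusted p under 0.05 there were 1782 (12.6%), against the 1048 (7.40%) under Kdm7a-shRNA. The study tested transcripts and not genes, and it reported differential transcripts for both of these contrasts. The spread of the log2 fold changes over the known genes was 0.42 (SD) with the control virus and 0.31 under Kdm7a-shRNA, from 7 and 9 mice.

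**Figure D5:**
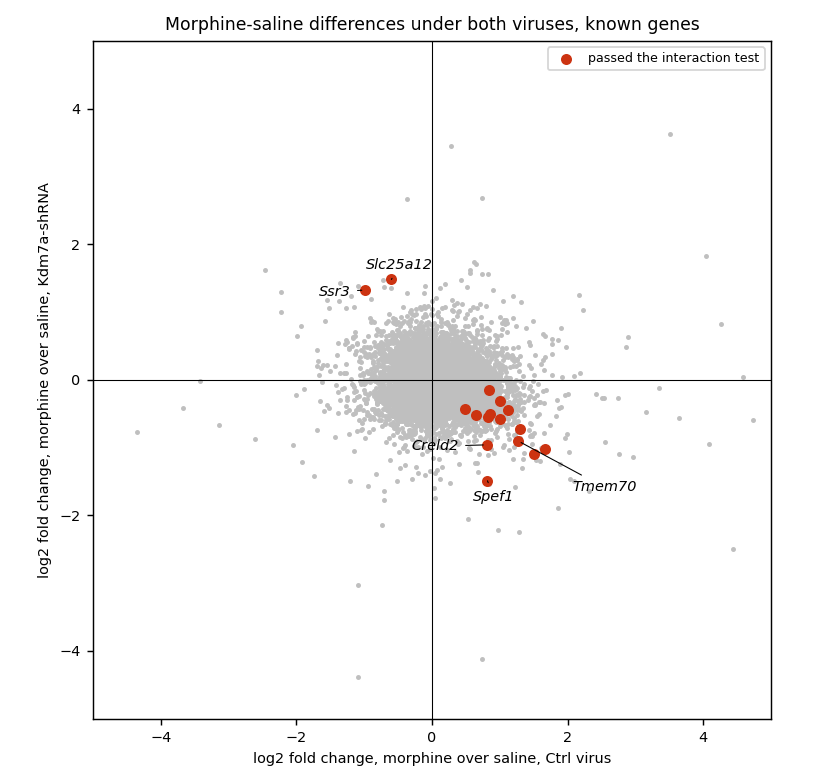
Log2 fold change of morphine over saline under Kdm7a-shRNA (vertical axis) against that with the control virus (horizontal axis) for the known genes, 1 point per gene, with 2 genes outside the axes. The 16 red points passed the interaction test, 2 at the upper left and 14 at the lower right, and the grey cloud has no slope that the eye can follow (r = -0.09).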

How the data were processed

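RNA of the mPFC of 16 mice was sequenced by Nanopore cDNA-PCR, and the 9 Kdm7a-shRNA mice were compared here. The authors dropped poor, short and ribosomal reads and mapped full-length reads to mm10 with minimap2. They deposited counts per gene, without normalization, and CPM, which equals each count over its column total to within 4.99e-06. Only the counts were tested. The version of minimap2 is not given in the sources used here, and the submitters' notes name edgeR 3.8.6 for the authors' own tests.

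The tests were run with edgeR 4.0.16 in R 4.3.3 (filterByExpr on the 4 groups, TMM factors, 1 quasi-likelihood fit for all 16 mice) and Benjamini-Hochberg adjustment over 18826 entries. An SE is the size of the log2 fold change over the square root of F. DESeq2 1.42.0 was an alternative. The common biological coefficient of variation was 0.215. Depth was 6596991 to 12418112 counts per mouse, of PCR-amplified reads, so floors of 3 counts cover counting error only, while SEs and 95% intervals come from the fit and include the spread between mice. Over 16 pairs of mice of a group the chi-square of the counts per degree of freedom was 8.33 to 51.2, so no pair was a repeat of 1 library. Positions are from GENCODE vM21 (GRCm38) and promoters from RefSeq (GRCm38.p6). The strand setting of the authors' counting is not given in the sources used here. Of 104 genes examined singly, 42 share exonic bases with another gene.

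The members, the 39 gene lists and the tests were chosen with earlier results of these data known. Named genes were Kdm7a, Fscn1 and genes of the study's sequencing, each known gene passing, the 10 higher and 10 lower known genes with the smallest p at a 1.5-fold change (clone-named genes and those under 1 CPM left out), list members with an unadjusted p under 0.05, the malate-aspartate shuttle, and genes passing under DESeq2. Cdc25b, Cenpb, Gm14232, Gnpda2 and Ptgds, and list members given only as holders of a motif, were named after their values were seen. Alternatives were size factors by RLE, scaling by library size, testing without a filter, 10 counts in every mouse, the 9 mice alone, DESeq2, edgeR's exact test, a replicate block, known genes only, the adjusted p alone and each mouse left out. Methods were tested on simulated data. Sequences of the hairpins were not used here, and 2 list members under the rule are not reported here.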

Additional observations from a re-analysis of the deposited data

Results flagged for a closer look

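The effect of morphine differed between the viruses, by the test of that difference with edgeR, in 5 of the 104 genes examined. The log2 fold change under Kdm7a-shRNA minus that with the control virus was 2.08 for Slc25a12, 2.30 for Ssr3, -1.77 for Creld2, -2.31 for Spef1 and -2.17 for Tmem70. Over 23 settings, left-out mice included, the difference passed in 15 for Slc25a12, 16 for Ssr3, 18 for Creld2 and 21 for Tmem70, and for Spef1 in 8 of 22.

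In 15 of the 218 groups of mice examined, the highest or lowest mouse lay far from the others by Dixon's test, which chance does in about 1 of 20 groups. Kdm7a-shRNA + Morphine replicate 2 was that mouse in 6 of them. It was the highest for Cox5a (162 normalized CPM, the others 47.9 to 49.95), Cyc1 (247, the others 147 to 157), Slc7a3 (82.5), Spef1 (2.16) and Oprm1 (3.60), and the lowest for Slc25a11 (56.2). In Cox5a, Cyc1 and Slc7a3 it lay at or near the level of the saline mice. Without this mouse 5 known genes passed in place of 1, namely Slc25a12 on the higher side and Cox5a, Tmem70, Tmem259 and Tm2d1 on the lower, the last pair named after their values were seen. The cause was not tested.

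Morphine replicate 3 was the lowest for Fmo1 (18.7), Sv2a (64.0) and Pdyn (7.65), and morphine replicate 1 for Hspb1 (1.69). In the Kdm7a-shRNA + Saline group, replicate 4 was the highest for Gpi1 (315) and for Cyc1 (263), replicate 2 for Oprm1 (4.61) and replicate 5 in total counts (10279638), and replicate 3 was the lowest for Suv39h2 (0.592).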

How the results depend on the processing

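The count of known genes passing, 1 with all mice, was 2 with at least 10 counts in every mouse (Atp11b added) and 2 with known genes only, 17 with DESeq2, 14 with edgeR's exact test and 0 with the 9 Kdm7a-shRNA mice alone (829 at an unadjusted p under 0.05). Over all entries the counts were 2, 2, 20, 15 and 0 (1038 unadjusted). It was 1 without a filter, under RLE size factors, by library size and with the adjusted p alone, and 0 to 5 with each mouse left out, for known genes and for all entries. The highest was without morphine replicate 2. It was 1 without morphine replicate 3 and 0 without any other of the 9 mice. The interaction count of 16 was 34 without a filter and 217 with DESeq2, 12 to 15 in the other scalings and filters, and 0 to 266 with each mouse left out. Why the counts differ was not tested.

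Mice of different groups are different animals, and the replicate numbers were not taken as pairs. The deviations of morphine and saline mice of the same number correlated at -0.03, -0.09, 0.37 and 0.33 for numbers 1 to 4. The saline mouse closest to morphine replicate 3 was replicate 3, and that closest to morphine replicate 4 was replicate 4. For morphine replicates 1 and 2 it was saline replicate 5 and 4. Whether mice of the same number shared a batch was not tested. With the replicate block, 0 known genes and 0 entries passed (930 and 1193 at an unadjusted p under 0.05), and the interaction count was 6, 5 of them shared with the 16.

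Of 1865 log2 fold changes of 104 genes under the alternatives, 1815 kept direction and side of the threshold, 33 passed only under the alternative, 9 no longer passed and 8 changed sign. Kdm7a ranged from -0.32 to 0.00 with mice left out, the latter (0.0043) without morphine replicate 3. Fezf2 became -0.10, -0.05 and -0.07 without morphine replicates 2 and 4 and saline replicate 3. Oprm1 became 0.10, 0.16 and 0.18 without morphine replicates 1, 3 and 4 and 1.31 without saline replicate 2, and was -1.996 without morphine replicate 2. List medians kept their sign in every setting in 26 of 39 lists, among them all lists of which a median is given above except the control virus values, and another scaling turned the sign in 3, the endothelial, ionotropic glutamate receptor and proteasome lists. The postsynaptic density median became -0.05 without morphine replicate 4. The choroid plexus and ependyma list had no tested member with 10 counts in every mouse. Library size alone moved the median of all entries by 0.03. With 4 and 5 mice and the depth given above, small changes and genes at low counts such as Kdm7a and Oprm1 were beyond the precision of the comparison.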
